A study of Rattus norvegicus with 24 samples.

Results

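The 8 genes studied here belong to the DNA methylation machinery, and their RNA was measured in the nucleus accumbens (NAc) of P14 rat pups. They were the DNA methyltransferases Dnmt1, Dnmt3a and Dnmt3b, the dioxygenases Tet1, Tet2 and Tet3, and the methylation readers Mbd2 and Uhrf1. They were listed by name, with earlier results of these data known, and each matched exactly 1 of the 23950 rows of gene-level values. RNA-Seq libraries came from 24 Sprague Dawley pups, 4 in each of 6 groups. In the in utero (IUO) group, F0 females were gavaged with oxycodone (oxy), an opioid pain reliever, before mating, through gestation and until weaning. Their dose started at 10 mg/kg/day and climbed in steps of 0.5 mg/kg/day to 15 mg/kg/day. In the postnatal (PNO) group, F0 dams received 15 mg/kg/day only between birth and weaning, and saline (SAL) animals were the controls. F2 pups were born to F1 females of each group, mated with breeder males that had no part in the experiment. These F1 females were not dosed themselves, but those of the oxy groups had been exposed in utero or through the milk. F2 SAL, F2 PNO and F2 IUO thus describe the dosing of the maternal grandmother and the early exposure of the mother. All pups shared the age, strain and tissue, and the sources used here do not tie a pup to its litter or sex, so the p-values measure the spread between these pups only.

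DNA methylation in vertebrates is placed mainly on cytosines that precede a guanine (CG). Dnmt3a and Dnmt3b set new methyl groups, and Dnmt1, led to newly copied DNA by Uhrf1, passes the pattern on when cells divide. The Tet enzymes oxidize the methyl group, which opens the way to its removal, and Mbd2 binds methylated CG and brings in a chromatin remodeling complex that lowers transcription. In brain, Dnmt3a is abundant during the first weeks after birth, when neurons gain methylation outside CG as well, and the Tet products are enriched in neurons.

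The start regions of these genes differ widely in how much of the target sequence they hold. RefSeq (build GRCr8) lists start regions for 7 of the 8 genes. The 3 listed windows of Tet1 hold 1, 2 and 12 CG, and the 4 of Tet3 hold between 3 and 22. The 250 bases upstream of the start are shown for Dnmt3a and Tet2, a methyltransferase and a Tet gene with 1 listed start each. Mbd2 and Dnmt1 also have 1 listed start each, with 33 and 9 CG, and the richest Uhrf1 window holds 30. CG is in capitals, and both are written 5′ to 3′ on the strand of the gene. The Dnmt3a stretch lies at chr6:32598352-32598601 on the plus strand, and the Tet2 stretch at chr2:224746187-224746436 on the minus strand.
Dnmt3a: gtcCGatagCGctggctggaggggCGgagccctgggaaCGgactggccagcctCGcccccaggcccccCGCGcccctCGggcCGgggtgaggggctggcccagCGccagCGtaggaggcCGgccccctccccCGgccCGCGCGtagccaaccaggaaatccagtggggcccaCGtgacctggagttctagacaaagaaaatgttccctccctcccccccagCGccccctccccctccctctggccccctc
Tet2: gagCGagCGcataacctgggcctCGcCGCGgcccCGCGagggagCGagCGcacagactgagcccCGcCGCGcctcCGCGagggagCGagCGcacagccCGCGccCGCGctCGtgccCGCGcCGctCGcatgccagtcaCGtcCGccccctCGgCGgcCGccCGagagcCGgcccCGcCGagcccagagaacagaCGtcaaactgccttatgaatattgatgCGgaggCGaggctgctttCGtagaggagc
Dnmt3a has 18 CG in this window and Tet2 has 38, against a median of 5.00 over the 33469 windows of that length in the table. Fewer CG were found in 79.9% of all windows than in that of Dnmt3a, and in 98.3% than in that of Tet2. The letters GGGCGG, read on both strands, occur 1 time in the Dnmt3a window and 2 times in the Tet2 window, and at least once in 30.5% of all windows. The letters CACGTG, which hold a CG, occur 1 time in the Dnmt3a window, not in that of Tet2, and in 5.59% of all windows. The RNA measurements below do not report on methylation at these bases.

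The 8 genes spanned more than 100-fold in level. FPKM, in which reads are scaled to transcript length and to library size, corrects for transcript length, so levels of different genes can be set side by side. Over all 24 libraries, the mean FPKM was 20.2 for Mbd2, 14.2 for Dnmt3a and 9.05 for Dnmt1. It was 4.52 for Tet3, 2.45 for Tet2, 1.80 for Uhrf1, 0.637 for Tet1 and 0.131 for Dnmt3b. This order of all 8 genes was found in 16 of the 24 libraries. Dnmt3a was above Dnmt1 in 22 libraries, and the Tet genes ran Tet3, Tet2, Tet1 from high to low in all 24. Dnmt3b, listed at 0 in 2 libraries, never reached 1 FPKM, and the mean level of Dnmt3a was 108 times its own.

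**Figure D1:**
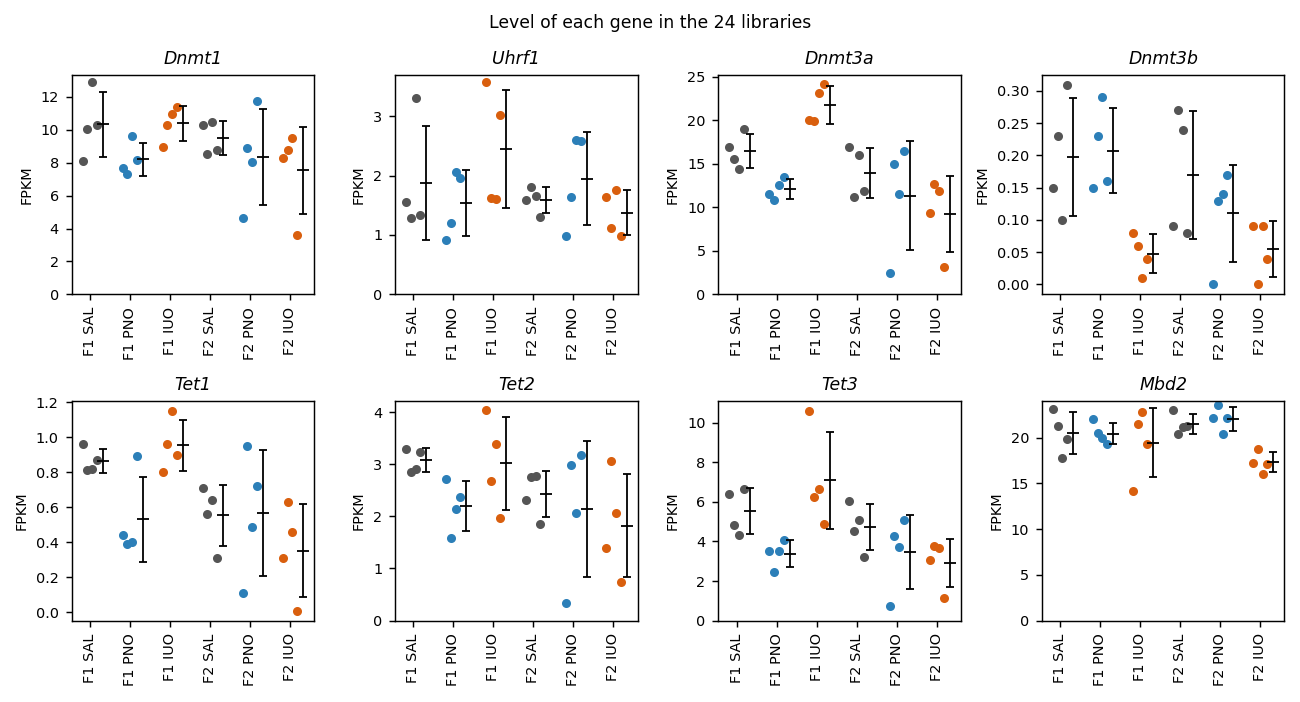
FPKM of each of the 8 genes (vertical axis, linear) in the 24 libraries, by group. Dots are single libraries in order of replicate number, and the black marks at the right of each group are the mean ± SD of 4 libraries. The 4 F1 IUO libraries of Dnmt3a sit between 19.9 and 24.19, above every other library in the study, whereas Mbd2 stays between 14.18 and 23.54 throughout.

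Mbd2 was also the steadiest of the 8. Its coefficient of variation over the 24 libraries was 11.8%, against 22.7% for Dnmt1, 37.0% for Dnmt3a and 69.8% for Dnmt3b. Tet1, Tet2, Tet3 and Uhrf1 lay between 35.0% and 45.8%. F2 PNO 1 and F2 IUO 4, a pair of libraries that stood apart, added to this spread. Without them the coefficient of variation was 15.1% for Dnmt1, 26.7% for Dnmt3a, 24.8% for Tet2, 36.5% for Tet3 and 35.1% for Tet1, and it was 62.8% for Dnmt3b, 38.1% for Uhrf1 and 11.7% for Mbd2. The lowest FPKM of Dnmt3a, Tet2 and Tet3 were those of F2 PNO 1 (2.44, 0.33 and 0.75), and the lowest of Dnmt1 and Tet1 were those of F2 IUO 4 (3.63 and 0.01). These libraries also had the highest FPKM sums of the series. Ribosomal protein genes made up 4.20% and 4.21% of the sum, a share that the control library F2 SAL 2 exceeded (4.63%). F2 PNO 1 had the largest share of mitochondrially encoded genes (47.4%), and F2 IUO 4 the most genes listed at 0 (7532). F2 PNO 1 was also the lowest library for neuron markers, with a mean log2(FPKM + 0.1) of 6.54 against 7.40 or more elsewhere, and the highest for oligodendrocyte markers (7.86). The deposited values give no read counts, so depth is unknown. In bulk tissue fewer cells of a type cannot be told apart from less RNA per cell.

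In F1, Dnmt3a was highest in IUO, intermediate in SAL and lowest in PNO. The 4 F1 IUO libraries read 20.02, 19.90, 23.17 and 24.19 FPKM, the F1 SAL libraries 16.89, 15.54, 14.43 and 18.99, and the F1 PNO libraries 11.51, 10.86, 12.58 and 13.47. No library of 1 F1 group overlapped with those of another. Between IUO (21.8 ± 2.19, SD, n = 4) and PNO (12.1 ± 1.15) the ratio of means was 1.80. The difference on the log2(FPKM + 0.1) scale was 0.84 (SE 0.115), and limma's Benjamini-Hochberg adjusted p over 17306 genes was 0.0468. This made Dnmt3a 1 of 23 genes, or 0.133% of those tested, with an adjusted p under 0.05 in that comparison. The call was close to the threshold. Its adjusted p ranged from 0.0330 to 0.443 over 11 alternative settings and stayed under 0.05 in 3 of them, and it was between 0.0567 and 0.173 when any 1 of the 8 libraries was left out. With the replicate number as a block the adjusted p was 0.108. The unadjusted p remained under 0.05 in 10 of the 11 settings, the exception being the fit of all 24 libraries together (0.0640), and in all 8 reduced sets.

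Against the saline controls, the Dnmt3a differences were smaller and did not pass adjustment. Dnmt3a was higher by 0.41 in F1 IUO (SE 0.122, ratio 1.33, unadjusted p 0.00794, adjusted p 0.999, limma) and lower in F1 PNO, at -0.44 (SE 0.116, ratio 0.735, unadjusted p 0.00409, adjusted p 0.233). In all 3 F1 comparisons the exact permutation test of 4 against 4 libraries gave p = 0.0286, the smallest that the 35 distinct splits allow.

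Other genes of the set also differed in F1, none of them past adjustment. Tet3, the most abundant Tet enzyme in these libraries, read 10.61, 6.22, 6.63 and 4.89 FPKM in F1 IUO, 6.40, 4.82, 4.31 and 6.63 in F1 SAL, and 3.51, 2.45, 3.50 and 4.09 in F1 PNO. All PNO libraries lay below all libraries of the other F1 groups, whereas IUO and SAL overlapped. The ratio of IUO to PNO means was 2.09 for Tet3 (log2 difference 1.01, SE 0.250, unadjusted p 0.00269, adjusted p 0.131, limma). Between PNO and SAL the log2 difference of Tet3 was -0.69 (SE 0.202, unadjusted p 0.00708, adjusted p 0.240, limma).

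Tet2 was also lower in all 4 F1 PNO libraries (2.71, 1.58, 2.14 and 2.37 FPKM) than in the F1 SAL libraries (3.30, 2.85, 2.90 and 3.24). The log2 difference was -0.49 (SE 0.185, unadjusted p 0.0265, adjusted p 0.305, limma). The F1 IUO libraries of Tet2 (4.03, 2.67, 3.39 and 1.97) overlapped with both groups. Tet1 was near 0.4 FPKM in 3 F1 PNO libraries (0.44, 0.39 and 0.40) and at 0.89 in the remaining one, inside the range of F1 SAL (0.81 to 0.96) and F1 IUO (0.80 to 1.15). Its log2 difference was -0.68 between PNO and SAL (unadjusted p 0.0384) and 0.80 between IUO and PNO (unadjusted p 0.0309), with adjusted p of 0.328 and 0.252 in limma.

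Dnmt1, the maintenance enzyme, had a mean of 10.4 FPKM in F1 IUO, 10.3 in F1 SAL and 8.20 in F1 PNO. Between IUO and PNO its log2 difference was 0.34 (SE 0.132, unadjusted p 0.0287, adjusted p 0.246, limma), and the libraries overlapped. Its partner Uhrf1 followed the same order, with 2.45, 1.88 and 1.54 FPKM, but its libraries spread from 0.92 to 3.57 and no F1 comparison of Uhrf1 reached an unadjusted p of 0.05.

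Dnmt3b ran the other way. It read 0.08, 0.06, 0.01 and 0.04 FPKM in F1 IUO, 0.15, 0.23, 0.10 and 0.31 in F1 SAL, and 0.15, 0.23, 0.29 and 0.16 in F1 PNO. All F1 IUO libraries were below all others of F1, all below the 0.1 FPKM minimum set for testing. The log2 difference of IUO was -1.06 from PNO (unadjusted p 0.0327, adjusted p 0.257, limma) and -0.98 from SAL (unadjusted p 0.0558). The gene passed the minimum of 0.1 FPKM in 4 libraries through the other group alone, so a difference was built into its being tested. Mbd2 was within 0.10 of 0 on the log2 scale in every F1 comparison (unadjusted p between 0.545 and 0.995, limma).

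**Figure D2:**
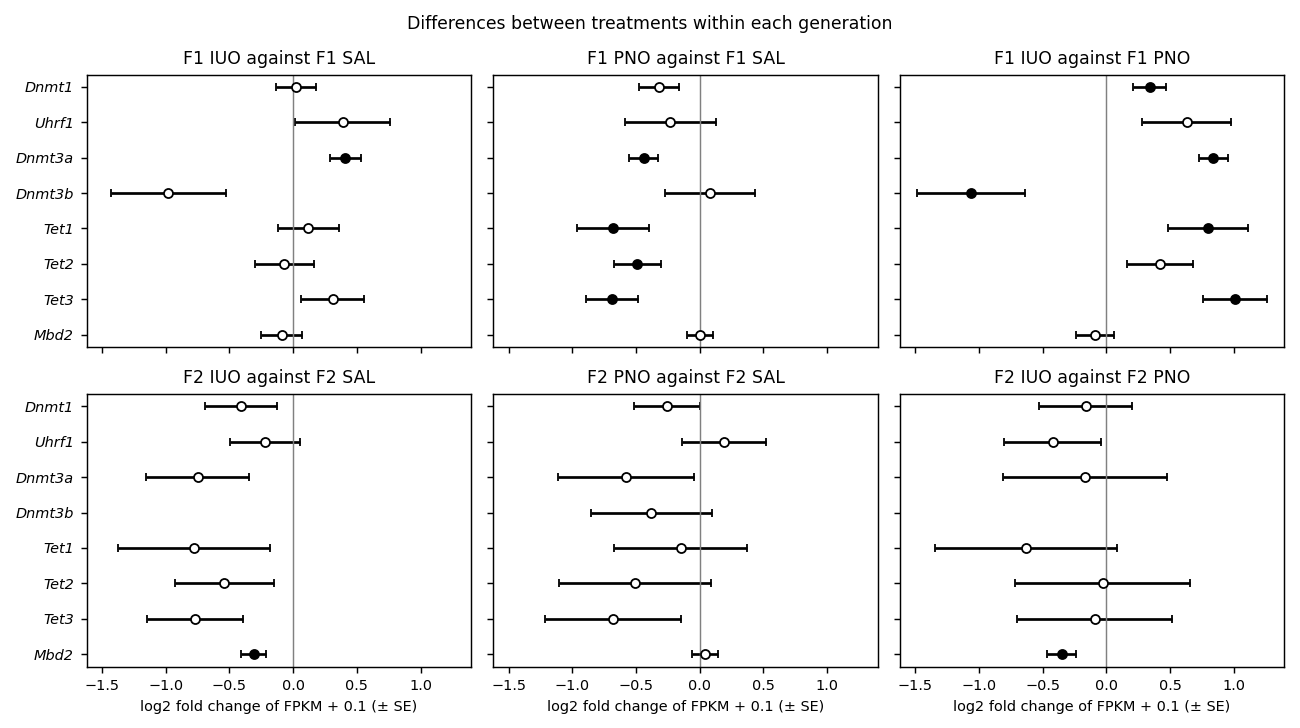
Log2 fold change of FPKM + 0.1 (horizontal axis, dots, with bars of 1 SE) for each gene, F1 comparisons above and F2 comparisons below. Filled dots have an unadjusted p under 0.05 in limma, and Dnmt3b has no dot where it did not pass the minimum level. In F1, filled dots lie left of 0 for PNO against SAL and, but for Dnmt3b, right of 0 for IUO against PNO, whereas in F2 only Mbd2 has filled dots.

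Counted over the set, an unadjusted p under 0.05 was reached by 1 of 8 genes for F1 IUO against SAL, where 3.91% of all genes tested did so. It was reached by 4 of 8 genes for F1 PNO against SAL (all lower in PNO, background 13.9%) and by 5 of 8 for F1 IUO against PNO (4 higher and 1 lower in IUO, background 16.5%). The lower one was Dnmt3b, whose difference was built into its being tested, and 4 of the other 7 genes remained. The groups did not overlap for 2, 3 and 3 of the 8 genes, where 2.54%, 8.27% and 10.5% of all genes tested did not. Without Dnmt3b these counts were 1, 3 and 2 of 7. The median log2 difference of the 7 genes other than Dnmt3b was 0.12, -0.44 and 0.63 in these comparisons, beside 0.01, -0.05 and 0.03 over all genes tested. The PNO and IUO libraries each enter several of these comparisons, so the counts are not independent of each other. After adjustment 0 of 17380 and 0 of 17494 genes were called for IUO and PNO against SAL in F1, although 679 and 2438 had an unadjusted p under 0.05 in limma.

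Markers of neighboring brain regions moved with the F1 groups as well. All 8 thalamus markers were detected. At an unadjusted p under 0.05, PNO pups of F1 exceeded their saline controls for 6 of them (background 13.9%, either direction). Their summed level was 187 to 438 FPKM in PNO, 83.6 to 257 in SAL and 79.8 to 294 in IUO. Hypothalamus markers summed to 43.8 to 158 FPKM in F1 IUO and 3.99 to 12.7 in F1 PNO, without overlap. Of that list, Hcrt, Pmch, Avp, Oxt, Otp and Agrp were genes that the study followed up from these same RNA-Seq data. So was Tcf7l2 of the thalamus list. Group differences of the hypothalamus list are therefore not independent of that choice. The striatal projection neuron list, which includes Drd1, Drd2 and Ppp1r1b and is not specific to the NAc, was detected at 1 FPKM or more for all 10 genes. It summed to 539 to 771 FPKM in F1 PNO and 837 to 1180 in F1 IUO. At an unadjusted p under 0.05 in limma, 6 of 10 genes were higher in IUO (background 16.5%, either direction). On the mean log2 scale the groups overlapped, at 4.65 to 5.58 in F1 PNO and 5.11 to 5.80 in F1 IUO. Cell type markers differed too. Microglia markers did not overlap between F1 IUO (mean log2 3.77 to 4.05) and F1 PNO (3.39 to 3.72), and 3 of 7 tested were higher in IUO at an unadjusted p under 0.05. So were 3 of 5 oligodendrocyte precursor markers, whose mean levels overlapped. The part of these cell type lists was not tested. With the mean thalamus marker level as a covariate, the log2 difference between F1 IUO and F1 PNO was 0.98 for Dnmt3a (unadjusted p 1.28e-04, adjusted p 0.192, limma), 0.54 for Tet3 (unadjusted p 0.0859) and -0.03 for Tet2, in place of 0.42. For F1 PNO against SAL the same covariate gave -0.40 for Dnmt3a (unadjusted p 0.0369, limma), -0.67 for Tet3 (0.0477), -0.39 for Tet2 (0.165) and -0.80 for Tet1 (0.0778). Dnmt1 went from -0.32 to -0.06, and the share of all genes at an unadjusted p under 0.05 from 13.9% to 4.70%. For 4 of the 6 hypothalamus markers tested, F1 IUO also exceeded F1 SAL at an unadjusted p under 0.05, and their part in these results was not tested.

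In F2, Mbd2 was the gene of the set for which a group stood apart from the others, although it did not pass adjustment. It read 17.27, 18.71, 16.07 and 17.13 FPKM in F2 IUO, 22.99, 20.37, 21.16 and 21.23 in F2 SAL, and 22.11, 23.54, 20.36 and 22.14 in F2 PNO. Every F2 IUO library was below every library of the other F2 groups. The log2 difference was -0.31 from SAL (SE 0.0995, unadjusted p 0.0118, adjusted p 0.538, limma) and -0.35 from PNO (SE 0.113, unadjusted p 0.0128, adjusted p 0.596), each with an exact permutation p of 0.0286. Without F2 PNO 1 and F2 IUO 4 these values were -0.30 and -0.34, so the difference did not rest on the libraries that stood apart. With every library rescaled to its upper quartile, which was higher in F2 IUO (16.4 to 17.9) than in most others, the difference from SAL was -0.25 (unadjusted p 0.0513, limma) and that from PNO -0.37 (unadjusted p 0.0317). After median-ratio rescaling the difference from SAL was also -0.25 (unadjusted p 0.0437, limma). Markers moved in the same comparison with SAL, where 4 of 6 cortex markers were higher in F2 IUO, and 3 of 10 striatal projection neuron and 2 of 7 microglia markers lower, at an unadjusted p under 0.05. Their part in the Mbd2 difference was not tested.

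Dnmt3a in F2 read 16.90, 11.20, 16.01 and 11.88 FPKM in SAL, 2.44, 15.03, 11.51 and 16.44 in PNO, and 9.31, 12.70, 11.94 and 3.09 in IUO. The 3 groups overlapped, and the low ends of PNO and IUO were the libraries that stood apart. The log2 difference of F2 IUO from F2 SAL was -0.75 (SE 0.402, unadjusted p 0.0927, limma) with all libraries and -0.29 (SE 0.188, unadjusted p 0.154) without them. For F2 PNO against F2 SAL it was -0.58 (SE 0.533) and 0.04 (SE 0.192), so that its sign followed 1 library. Neuron markers did not overlap between F2 PNO (mean log2 6.54 to 7.59) and F2 SAL (7.62 to 7.79), where the 6.54 was that of F2 PNO 1. Microglia markers did not overlap either (3.49 to 3.74 in F2 PNO and 3.78 to 4.22 in F2 SAL). The part of either list was not tested.

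The Tet genes overlapped between the F2 groups. Tet3 had a mean of 4.72 FPKM in SAL, 3.47 in PNO and 2.92 in IUO, and its log2 difference of IUO from SAL went from -0.77 to -0.39 when the libraries were left out (unadjusted p 0.0682 and 0.126, limma). Tet2 ranged from 0.33 to 3.18 and Tet1 from 0.01 to 0.95 FPKM in F2, with overlap in every F2 comparison. Without F2 PNO 1 and F2 IUO 4, the log2 difference of IUO from SAL was -0.20 for both Tet1 and Tet2, -0.10 for Dnmt1 and -0.09 for Uhrf1 (unadjusted p 0.487 to 0.734, limma). Uhrf1 (0.98 to 2.60) and Dnmt1 (3.63 to 11.73) overlapped as well, and Dnmt3b, at 0 to 0.27, was tested only for PNO against SAL.

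Of the genes tested, 1 of 7 had an unadjusted p under 0.05 for F2 IUO against SAL (background 8.49%), 0 of 8 for F2 PNO against SAL (background 10.8%) and 1 of 7 for F2 IUO against PNO (background 7.07%). Mbd2 was that gene each time. The counts were again 1, 0 and 1 without F2 PNO 1 and F2 IUO 4. The libraries did not overlap for 1, 0 and 1 genes of the set, where 5.11%, 7.01% and 4.74% of all genes tested did not. No gene of the set passed adjustment, where 0, 0.00576% and 0% of all genes tested did in limma.

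**Figure D3:**
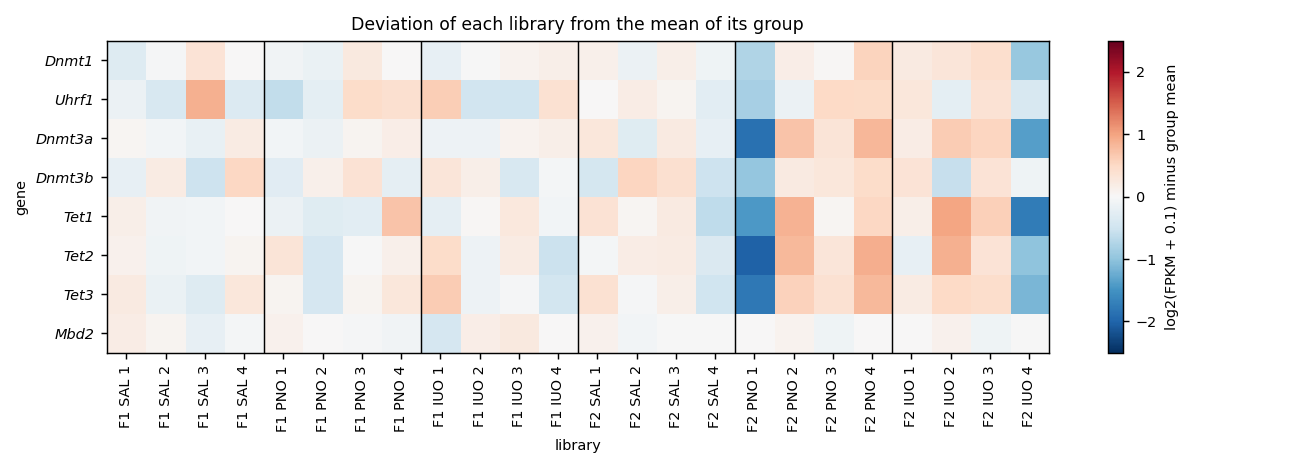
Deviation of log2(FPKM + 0.1) from the mean of its own group for each gene (rows) and library (columns, groups parted by vertical lines), with blue below and red above the mean. F2 PNO 1 and F2 IUO 4 are blue for Dnmt1, Dnmt3a and the 3 Tet genes, whereas Mbd2 lies near its group mean in both.

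The same treatments were next compared across generations. Between F2 IUO and F1 IUO, 3 of 7 genes tested had an unadjusted p under 0.05, all lower in F2 (background 15.0%). Dnmt3a differed by -1.40 on the log2 scale (SE 0.384, adjusted p 0.231, limma), Tet3 by -1.32 (SE 0.388, adjusted p 0.236) and Tet1 by -1.50 (SE 0.582, adjusted p 0.278), and for none of these 3 genes did the groups overlap. Without F2 IUO 4 the differences were -0.95, -0.94 and -0.92, with unadjusted p of 1.66e-04, 0.00618 and 0.0328. That library was the lowest of F2 IUO for all 3 genes, so its removal narrows their spread by choice. With the mean level of ribosomal protein genes as a covariate the differences were -0.63 for Dnmt3a (unadjusted p 0.132, limma), -0.65 for Tet3 (0.164) and -0.49 for Tet1 (0.463). With that covariate the share of all genes at an unadjusted p under 0.05 went from 15.0% to 3.72%. In the same comparison 5 of 10 striatal projection neuron markers were lower in F2 IUO at an unadjusted p under 0.05, and their part was not tested. Among all genes tested, 10.7% did not overlap and 0% passed adjustment.

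Between F2 SAL and F1 SAL, 0 of 8 genes had an unadjusted p under 0.05 (background 8.48%). Tet1 (0.31 to 0.71 against 0.81 to 0.96 FPKM) and Tet2 (1.85 to 2.78 against 2.85 to 3.30) were nonetheless lower in every F2 control than in every F1 control, where 4.98% of all genes tested did not overlap. Their limma p was 0.0553 and 0.0764 before adjustment, with log2 differences of -0.60 and -0.34. Between F2 PNO and F1 PNO, 0 of 8 genes had an unadjusted p under 0.05 (background 4.76%), also 0 without F2 PNO 1, and the groups overlapped for all 8 (3.34% of all genes tested did not). After adjustment, 0.0343% of genes were called for SAL and 0.0288% for PNO between the generations, none of them in the set.

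Whether a treatment difference itself changed between generations was tested as an interaction. For IUO against SAL, the F2 difference minus the F1 difference was -1.16 for Dnmt3a (SE 0.451, unadjusted p 0.0210, adjusted p 0.924, limma) and -1.09 for Tet3 (SE 0.472, unadjusted p 0.0356, adjusted p 0.924). These 2 of 8 genes stood beside a background of 5.15%. Without the libraries that stood apart, the Dnmt3a value was -0.70 (unadjusted p 0.00668) and that of Tet3 -0.70 (unadjusted p 0.0642). For PNO against SAL 0 of 8 genes had an unadjusted p under 0.05 (background 4.06%), and for IUO against PNO 0 of 8 (background 5.76%). Without those libraries, the IUO against PNO interaction of Dnmt3a was -1.18 (SE 0.212, unadjusted p 7.49e-05, adjusted p 0.178, limma) in place of -1.01 (SE 0.705, unadjusted p 0.171), and 4 of 8 genes had an unadjusted p under 0.05, where 10.3% of all genes did in that fit. The libraries left out hold the lowest Dnmt3a values of the study (2.44 and 3.09 FPKM) and were left out after these were seen. The smaller SE and p without them, and the count of 4, therefore lend no support. In a single test of any difference among the 6 groups, 3 of 8 genes had an unadjusted p under 0.05, namely Dnmt3b (0.0259), Tet3 (0.0331) and Dnmt3a (0.0361), against a background of 16.6%. Dnmt3b is near the minimum level, and the other 7 genes gave 2. None passed adjustment, where 0.141% of all genes did.

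Among pups of the same group, several of the genes varied together. After centering on group means, Pearson's r over the 24 libraries was 0.939 for Tet2 and Tet3 (Spearman's rho 0.857), 0.908 for Dnmt3a and Tet1 (rho 0.807), 0.908 for Dnmt3a and Tet3 (rho 0.801) and 0.887 for Dnmt3a and Tet2 (rho 0.663). The permutation p of these 4 values of r was 1.00e-05, the smallest that 100000 permutations can give, and 17 of the 28 pairs had an adjusted p under 0.05. These values depended on the libraries that stood apart. With F2 PNO 1 and F2 IUO 4 left out and group means recomputed, r was 0.742, 0.683, 0.495 and 0.399 in the same order, and 4 of 28 pairs kept an adjusted p under 0.05. Dnmt1 and Dnmt3a went from 0.873 to 0.476, and Dnmt1 and its partner Uhrf1 from 0.540 to 0.354 (adjusted permutation p 0.0127 and 0.329).

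One relation ran the opposite way. Uhrf1 and Mbd2, both readers, were inversely related, with r = -0.657 (permutation p 3.20e-04, adjusted p 9.96e-04) and rho = -0.649 (permutation p 8.20e-04, adjusted p 0.00287). Without the libraries farthest from the Uhrf1 median, F1 SAL 3 and F2 PNO 1, r was -0.673, and without F2 PNO 1 and F2 IUO 4 it was -0.755. Mbd2 had no such relation with any Dnmt or Tet gene, its r with them lying between -0.286 and 0.154.

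The levels were also set beside markers of cell types. Uhrf1 followed the mean level of 14 proliferating cell markers (r = 0.703, permutation p 1.40e-04, adjusted p 0.00555, rho 0.623), as did Dnmt1 (r = 0.613, adjusted p 0.0232, and 0.544 without F2 PNO 1 and F2 IUO 4). Dnmt1 followed astrocyte markers about as closely (r = 0.620, adjusted permutation p 0.0186, and 0.359 without F2 PNO 1 and F2 IUO 4). Dnmt3a and Tet3 followed neuron markers (r = 0.795 and 0.799, adjusted permutation p 0.00598 and 0.00555), at 0.350 and 0.401 without F2 PNO 1 and F2 IUO 4 (adjusted permutation p 0.521 for both). Tet2 followed them as closely (r = 0.797, adjusted permutation p 0.00555, and 0.241 without those libraries). Dnmt3a was also related to astrocyte (r = 0.618) and cortex markers (0.625), and Tet3 to cortex markers (0.687). The adjusted permutation p of these was 0.0186, 0.0281 and 0.0102. Dnmt3b, a low gene, was inversely related to oligodendrocyte markers (r = -0.651, adjusted permutation p 0.0102, and -0.533 without those libraries). In all, 13 of 104 pairs of gene and marker list had an adjusted p under 0.05, and 0 of 104 without F2 PNO 1 and F2 IUO 4, where Uhrf1 and the proliferating cell markers had r = 0.650 (adjusted permutation p 0.0894). Beyond markers, the genes most like Dnmt3a among 11948 compared were Tnik (r = 0.992), Wdfy3 (0.990) and Zfp597 (0.984). For Tet3 they were Foxk1 (0.975), Tulp4 (0.970) and Klf13 (0.964), and for Uhrf1 Coro1c (0.830), Myt1 (0.822) and Kdm2b (0.806). Without the libraries that stood apart, r was 0.933 for Tnik, 0.887 for Foxk1 and 0.801 for Coro1c, and these genes were picked for their likeness, so no test applies.

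Other genes that work with the set were drawn from 4 lists, which together hold 70 genes and cover readers and their partners, partners of the methyltransferases, demethylation and base excision repair, and methyl donor metabolism. None passed adjustment in any comparison. For F1 IUO against SAL, PNO against SAL and IUO against PNO, 3 of 64, 10 of 65 and 11 of 65 genes tested had an unadjusted p under 0.05, that is 4.69%, 15.4% and 16.9%, close to the shares over all genes. In F2 the counts were 5 of 65 for IUO against SAL, 8 of 65 for PNO against SAL and 5 of 65 for IUO against PNO. These were 7.69%, 12.3% and 7.69%, close to the 8.49%, 10.8% and 7.07% over all genes tested.

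Gatad2b, a subunit of the same remodeling complex that Mbd2 joins, was at 6.89 ± 0.335 FPKM (SD, n = 4) in F1 PNO and 9.62 ± 0.386 in F1 SAL. The log2 difference was -0.48 (SE 0.0950, unadjusted p 6.56e-04, adjusted p 0.231, limma). Its F1 IUO libraries had a mean of 10.2 ± 3.40 FPKM. Pcna, the sliding clamp of DNA replication that also holds Dnmt1, went the other way from Dnmt1, at 29.6 ± 1.93 FPKM in F1 PNO, 20.5 ± 3.91 in F1 SAL and 20.2 ± 2.08 in F1 IUO. Its log2 difference was -0.55 between IUO and PNO (SE 0.105, adjusted p 0.0853, limma). Pcna was also higher in F2 PNO (30.3 against 19.4 in F2 SAL, log2 difference 0.63, unadjusted p 0.00366, adjusted p 0.361, limma), with a difference of 0.56 without F2 PNO 1. F2 IUO exceeded F2 SAL as well, at 25.2 FPKM (log2 difference 0.37, unadjusted p 0.0277, adjusted p 0.567, limma), with a difference of 0.46 without F2 IUO 4.

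In methyl donor metabolism, Cbs, which draws homocysteine away from the methyl cycle, was lower in F2 PNO than in F2 SAL (13.3 ± 1.87 against 24.1 ± 4.10 FPKM, log2 difference -0.85, adjusted p 0.226, limma, and -0.91 without F2 PNO 1). Bhmt, which turns homocysteine back into methionine, was at 4.43 ± 1.85 FPKM in F2 IUO and 0.920 ± 0.834 in F2 SAL (log2 difference 2.35, adjusted p 0.333, limma, and 2.42 without F2 IUO 4). None of these genes changed past adjustment.

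**Figure D4:**
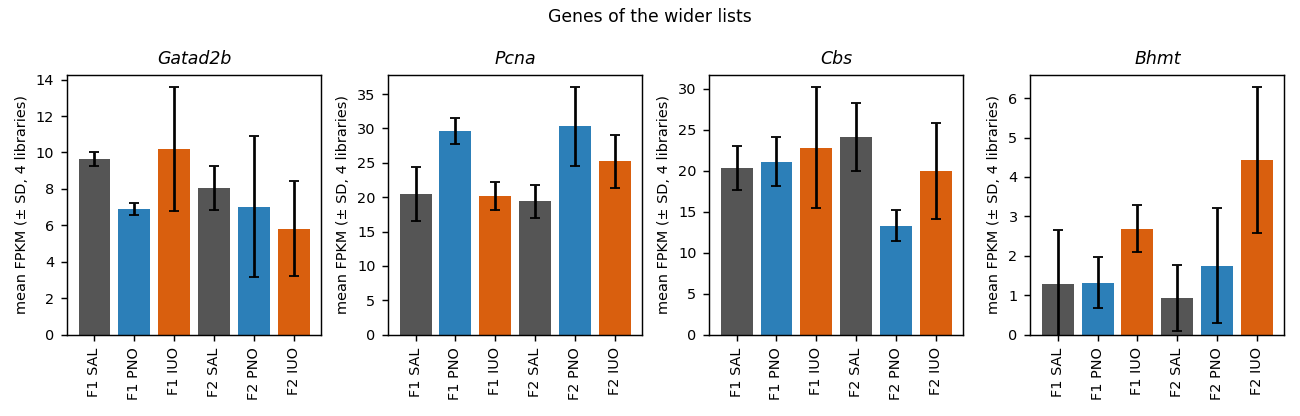
Mean FPKM (vertical axis, bars from 0, with SD over 4 libraries) of Gatad2b, Pcna, Cbs and Bhmt in the 6 groups. Gatad2b is at 9.62 in F1 SAL and 6.89 in F1 PNO, and Pcna stands at 29.6 and 30.3 in F1 PNO and F2 PNO and at 25.2 in F2 IUO.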

How the data were processed

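RNA from the NAc of 24 P14 pups was sequenced by a service laboratory for the authors. The deposited FPKM values were, per the authors, estimated with StringTie after the transcriptomes of all samples had been merged. The submitters' processing notes also name HISAT2 and SAMtools, without roles or versions, and the genome build is not given in the sources used here. FPKM carry no read counts, so depth is unknown, no counting interval is given, and the count model of the study's methods was replaced by limma.

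Groups followed the labels. limma 3.58.1 (R 4.3.3, lmFit and eBayes with trend) was fitted to log2(FPKM + 0.1) for genes with at least 0.1 FPKM in 4 or more libraries of each comparison, which understates changes of low genes. There were 9 pairwise comparisons, 3 generation interactions and 1 test over 6 groups, all two-sided, with p-values adjusted by Benjamini-Hochberg over all genes tested. Exact permutation tests, which went through all splits (numpy 2.4.6), stood beside the pairwise ones. Relations over libraries used 100000 permutations and adjustment over 28 or 104 pairs. All 8 genes were named. From the wider lists, at most the 4 genes with the smallest unadjusted p in a comparison were named, and for each gene the 3 most like it were taken, from genes with a mean FPKM of at least 1. Some results of the wider lists are not reported here. The genes, lists and markers were chosen with earlier results of these data known. Alternatives varied the pseudocount, filter, scaling, variance model, libraries, replicate block and marker covariates. A ribosomal protein covariate and the removal of F2 PNO 1 and F2 IUO 4 were added after the data were seen. The fit of F1 IUO against SAL was tested on simulated data.

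Same-numbered replicates were checked for pairing, and in no comparison did all 4 pairs of libraries correlate above 0.1, so the numbers were not treated as pairs. In F1 IUO against PNO 3 of 4 pairs did (0.125, 0.157 and 0.114).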

Additional observations from a re-analysis of the deposited data

Results flagged for a closer look

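In 48 groups of 4 libraries, 1 for each gene and group, a library far from the other 3 was found for 2, and about 2.40 would be expected by chance, since chance marks about 1 in 20. Uhrf1 in F1 SAL 3 was at 3.31 FPKM, and its gap to the nearest library took up 0.866 of the range of the group. The same library had the highest summed level of proliferating cell markers in F1 SAL (64.4 FPKM). Tet1 in F1 PNO 4 was at 0.89 FPKM, with a gap of 0.900 of the range, whereas the other F1 PNO libraries lay between 0.39 and 0.44.

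Treatment differences that differed between the generations were those of Dnmt3a, at -1.16 for IUO against SAL (limma, unadjusted p 0.0210, adjusted p 0.924), and of Tet3, at -1.09 (unadjusted p 0.0356, adjusted p 0.924). Uhrf1 differed by -1.04 for IUO against PNO (limma, unadjusted p 0.0681, adjusted p 0.902), a value that missed an unadjusted p of 0.05. It was flagged with a direction that differed between F1 and F2, which does not set Uhrf1 apart. The sign for IUO against PNO also changed for Tet1, Tet2, Tet3, Dnmt1 and Dnmt3a. The interaction was larger for Tet1 (-1.43, unadjusted p 0.0948, limma) and Tet3 (-1.10, unadjusted p 0.136).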

How the results depend on the processing

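The 17 pairs of gene and comparison with an unadjusted p under 0.05 kept their sign in all 338 refits, whereas 33 of the 76 other pairs changed sign in at least 1. The 17 were picked by their p in these same libraries, so this contrast follows largely from that choice and lends them no support. The adjusted call of Dnmt3a for F1 IUO against PNO became 0 calls with a pseudocount of 1, no filter, all 24 libraries in one fit, the replicate block, the thalamus, proliferating cell or ribosomal protein covariate, or no trend, and 0 whichever library was left out. The cause of these shifts was not tested. The other values are counts of genes of the set at an unadjusted p under 0.05 in limma. F1 IUO against SAL went from 1 to 2 without a filter or trend. F1 PNO against SAL went from 4 to 0 in one fit and to 2 with the thalamus covariate, and was 2 to 4 with 1 library left out, lowest without F1 SAL 4 or F1 PNO 2. Over all genes the share went from 13.9% to 7.35% in one fit and 4.70% with the thalamus covariate. F1 IUO against PNO went from 5 to 3 at a minimum of 1 FPKM, 2 in one fit, 3 with the replicate block and 2 with the thalamus or proliferating cell covariate, and was 2 to 5 with 1 library left out. F2 IUO against SAL went from 1 to 0 after upper-quartile rescaling and 2 with the replicate block, and was 1 to 4 with 1 library left out, highest without F2 IUO 2. F2 PNO against SAL went from 0 to 3, and F2 PNO against F1 PNO from 0 to 4, with the proliferating cell covariate, while the share over all genes went from 10.8% to 20.7% and from 4.76% to 19.2%. F2 SAL against F1 SAL went from 0 to 1 with a pseudocount of 1 or no trend, and was 0 to 1 with 1 library left out (1 without F2 SAL 1). F2 IUO against F1 IUO went from 3 to 5 in one fit and 0 with the ribosomal protein covariate, while the share over all genes went from 15.0% to 19.2% and 3.72%. The IUO against SAL interaction went from 2 to 0 in one fit and 1 without F2 PNO 1 and F2 IUO 4, and was 1 to 2 with 1 library left out (1 without F1 SAL 2, F2 SAL 1, F2 SAL 3 or F2 IUO 4). The PNO against SAL interaction went from 0 to 2 without both of those libraries and was 0 to 2 with 1 left out (2 without F2 PNO 1). Without both, the share over all genes went from 4.06% to 7.01%. The IUO against PNO interaction went from 0 to 1 with a pseudocount of 1, 3 with the thalamus covariate, 2 with the ribosomal protein covariate and 4 without both libraries, and was 0 to 4 with 1 left out (4 without F2 PNO 1). All genes went from 5.76% to 5.86%, 6.77%, 6.91% and 10.3% in the first 4 of these settings. The test over 6 groups went from 3 to 1 with the replicate block or the ribosomal protein covariate, and was 1 to 4 with 1 library left out (1 without F1 SAL 4, F1 IUO 2 or F1 IUO 3). Of the relations between genes, 17 became 4 without both libraries, and of those to marker lists, 13 became 5 after upper-quartile rescaling, 6 after median-ratio rescaling, 4 without centering and 0 without both libraries.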
